A study of Saccharomyces cerevisiae with 8 samples.

Results

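Ribose methylation of ribosomal RNA (rRNA) was compared between budding yeast with the helicase gene PRP43 behind a GAL promoter, in the libraries labelled Glu (PRP43_Glu), and wild-type yeast (WT). The comparison was set by the sample labels and holds 4 of the 8 libraries of the study, biological duplicates A and B of each group, and it covers the 55 annotated 2'-O-methylation sites of the deposited overview, 18 in 18S and 37 in 25S rRNA, together with all other nucleotides of both RNAs. The same PRP43 strain labelled Gal (PRP43_Gal, 2 libraries) is given beside it, and a Dbp3 deletion strain (Delta_Dbp3, 2 libraries) entered the fits for its spread alone. The labels name rich medium with glucose or galactose and synthetic medium without leucine, and state neither which of them the WT cultures had nor how long the PRP43_Glu cultures had been in glucose. The study asked how RNA helicases act on small nucleolar ribonucleoproteins and on rRNA methylation. The level of PRP43 itself is not part of the tables analysed here, so the shut-off was not checked.

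Most ribose methyl groups of yeast rRNA are placed by box C/D small nucleolar RNAs (snoRNAs), each of which pairs with a stretch of rRNA and leads the methyltransferase Nop1 to one nucleotide in it. Prp43 is a DEAH-box RNA helicase that acts in both ribosomal subunits' assembly, where it is known for removing snoRNAs from precursors of the large subunit, and it also takes the spliceosome apart once an intron has been cut out. A GAL promoter is active in galactose and repressed in glucose. In RiboMeth-seq RNA is broken by alkali, and a methylated ribose resists breakage next to it, so that methylated nucleotides stand out by a lack of fragment ends. The score used here sets the read ends of a nucleotide against those expected from its 6 neighbours on each side and subtracts that ratio from 1. A score of 1 means that no read began or ended there. A score of 0 means cleavage like that of the neighbours or above it, since values below 0 were set to 0.

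The sites the comparison turned on lie in windows of 13 nt that the score is computed from, taken from the deposited tables in the 5' to 3' direction, with each annotated nucleotide in capitals (Am, Cm, Gm and Um stand for the methylated forms of the bases). The first 8 windows hold large falls in PRP43_Glu, the next pair holds the sites with the lowest WT scores, and the last pair holds sites of the A loop and the decoding centre, where the ribosome forms bonds and reads codons.
Cm1007 of 18S: agauacCgucgua
Gm1572 of 18S: uucaacGaggaau
Am619 of 18S: gcaguuAaaaagc
Um1888 of 25S: gaauaaUguagau
Am1449 and Gm1450 of 25S: gguaguAGcaaau
Cm1437 of 25S: gcagauCuuggug
Gm805 and Am807 of 25S: acccGaAagaugg
Am649 and Cm650 of 25S: ugaaacACggacc
Um2347 of 25S: aucuacUaucuag
Cm2948 of 25S, with Am2946 in the same window: cgugAgCuggguu
Um2921 and Gm2922 of 25S: uuggauUGuucac
Cm1639 of 18S: acaccgCccgucg

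The libraries held 12211596 and 10997180 read ends on 18S and 25S in WT and 5557319 and 7045005 in PRP43_Glu, and the median site had between 958 and 1324 expected read ends per library. The share of read ends on 18S was 37.2% and 41% in WT and 30.7% and 31.3% in PRP43_Glu. Between duplicates the site scores differed by a median of 0.0133 in WT and 0.0253 in PRP43_Glu. Across 5117 unannotated nucleotides, which are not independent replicates, the log2 read-end ratios had a Pearson r of 0.701 between the WT duplicates and 0.76 between the PRP43_Glu duplicates, but of 0.375 to 0.482 between WT and PRP43_Glu and 0.718 to 0.788 between PRP43_Gal and PRP43_Glu. PRP43_Glu libraries and Delta_Dbp3 libraries carried the same 2 barcodes and WT libraries carried others, and the extra RNAs mapped beside the rRNA were not the same in the WT table as in the PRP43 tables. The shared barcodes were crossed over the letters, and libraries with the same barcode had an r of 0.538 and 0.561 between Delta_Dbp3 and PRP43_Glu against 0.373 and 0.429 for those with different ones. The fits carry no barcode term. Strain, medium, barcode and processing set therefore cannot be told apart in the comparison with WT, and the part of read depth and of the 18S share in it was not tested.

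Methylation was lower in PRP43_Glu than in WT at 38 of the 55 sites, 69.1% of those tested, and higher at 0 (limma, adjusted p under 0.05). At an unadjusted p under 0.05 the counts were 40 lower and 0 higher. Both PRP43_Glu libraries lay below both WT libraries at all 38 sites and at 51 of the 55 (92.7%), and at 0 sites did both lie above. The same order, more read ends relative to the neighbours in both PRP43_Glu libraries, held at 1827 of 5117 unannotated nucleotides (35.7%). The median score of the 55 sites was 0.968 and 0.967 in the WT libraries and 0.817 and 0.81 in the PRP43_Glu libraries. A mean above 0.9 was found at 47 sites in WT and at 16 in PRP43_Glu, and a mean under 0.5 at 0 and at 9. The score is an average over all rRNA molecules of a culture, old and new, so fewer methylated molecules in every cell and unmethylated rRNA in some cells cannot be told apart. With 2 libraries against 2, an exact permutation test of a single site cannot go below 0.333, so the calls rest on the variance that limma pools over all groups and sites.

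**Figure D1:**
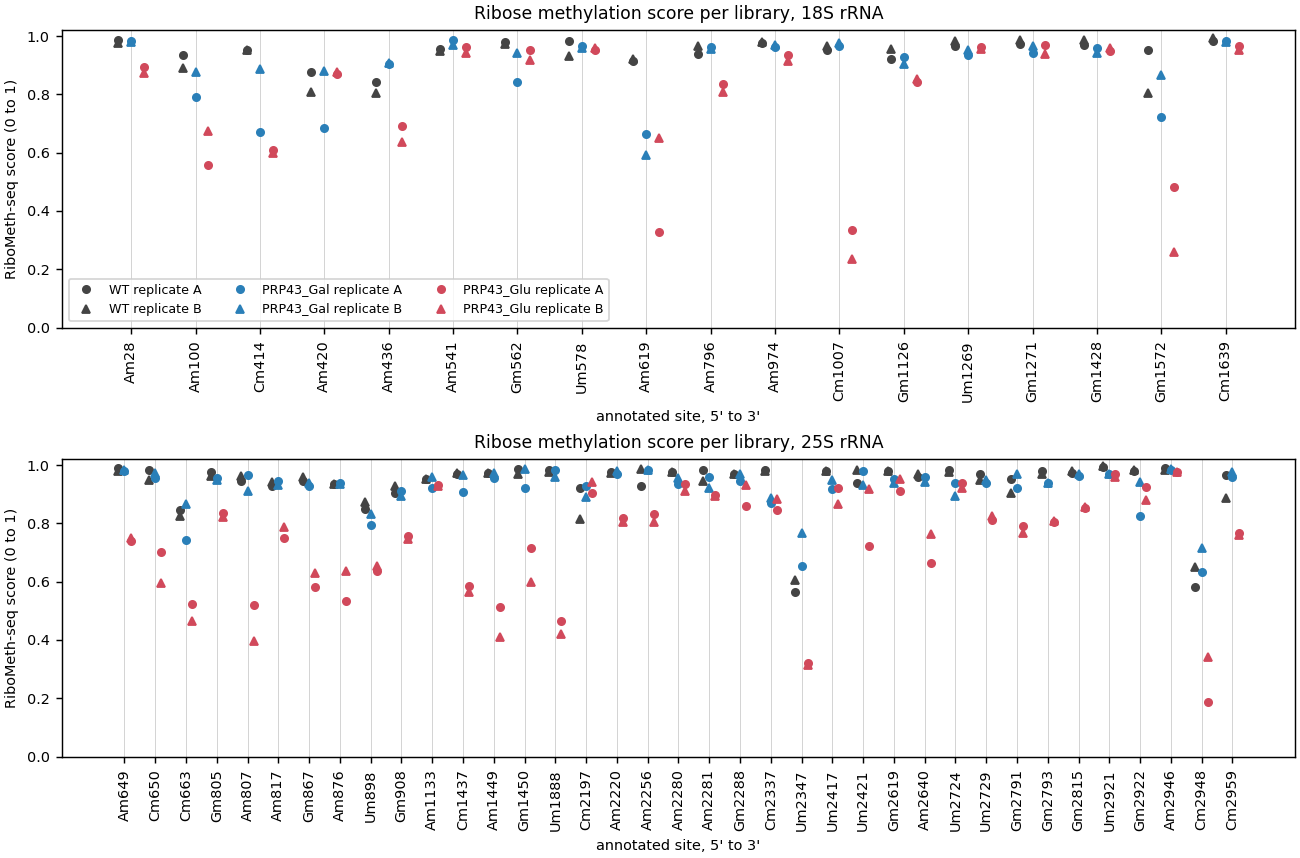
RiboMeth-seq score (0 to 1, vertical axis) at each annotated site, from 5' to 3' along 18S (upper panel) and 25S (lower panel), with 1 point per library: WT in black, PRP43_Gal in blue and PRP43_Glu in red, replicate A as a circle and replicate B as a triangle. At 51 of the 55 sites both red points lie below both black points, and at 9 sites the red mean is under 0.5.

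The size of the fall ranged widely over sites of one RNA. Of the 38 sites, 4 fell by at least 0.5, 13 by at least 0.3 (these 4 included), 18 by 0.1 to 0.3 and 7 by less than 0.1, with a median of -0.167 against -0.141 over all 55. At 37 of the 38 the gap between the lowest WT and the highest PRP43_Glu score was wider than the gap between either pair of duplicates, and Am619 was the exception. Over the 38 sites the unprotected share, 1 minus the score, was a median of 5.48 times that of WT. Values below are given for replicates A and B in that order (n = 2 per group), with the difference ± its moderated standard error (SE) and limma's adjusted p.

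**Figure D2:**
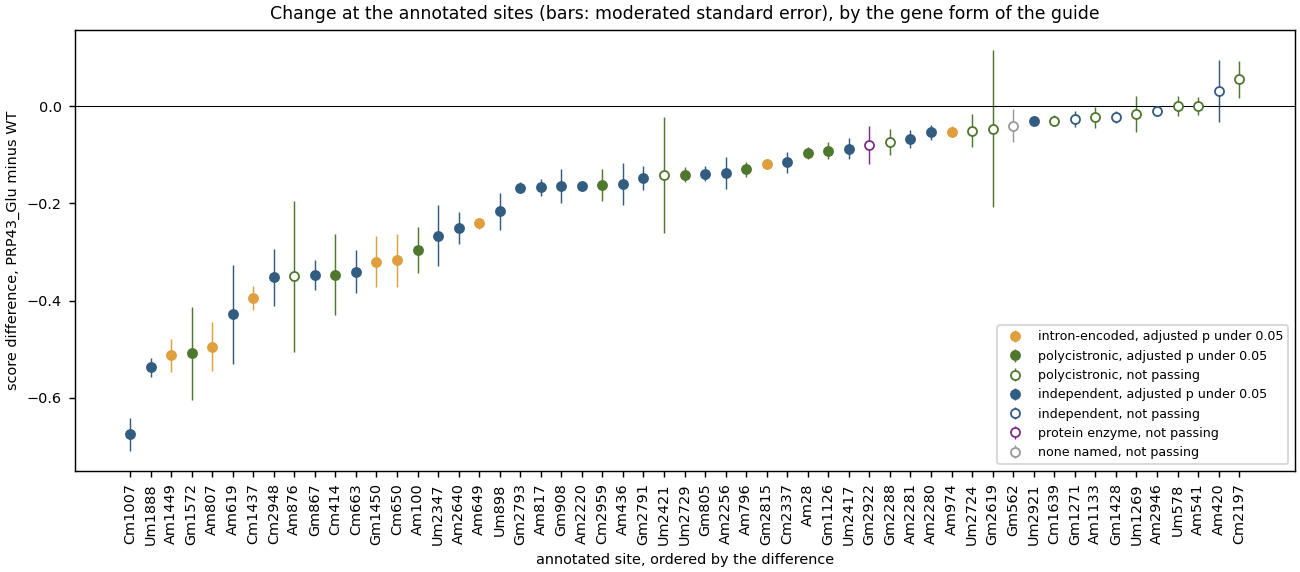
Difference in score, PRP43_Glu minus WT (vertical axis), at the 55 sites ordered by size, with bars for the moderated SE, colours for the gene form of the guide RNA and filled points for an adjusted p under 0.05. The 38 filled points lie below 0, from -0.676 at Cm1007 to -0.0301 at Um2921, and the bars at Gm2619, Am876 and Um2421 are the widest.

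Cm1007 in the central domain of 18S fell most. Its guide is snR79, a snoRNA with its own gene. Scores were 0.953 and 0.967 in WT and 0.334 and 0.235 in PRP43_Glu, a fall of 0.676 ± 0.0332 (adjusted p = 5.55e-05). In WT 37 and 52 read ends were counted where 794 and 1564 were expected, and in PRP43_Glu 591 and 897 where 887 and 1172 were expected. Counting error alone left the scores between 0.936 and 0.975 in WT and between 0.183 and 0.387 in PRP43_Glu (exact 95% Poisson limits, widest over both replicates). Such limits cover counting error only, not the spread between cultures. PRP43_Gal, the same strain in galactose, had 0.967 and 0.976, next to WT.

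In 25S, Um1888, guided by snR62, was the largest fall. Scores of 0.985 and 0.976 in WT faced 0.464 and 0.421 in PRP43_Glu, a fall of 0.538 ± 0.0196 (adjusted p = 3.48e-05), and its unprotected share was 28.3 times that of WT, the highest ratio of the 55 sites. The WT libraries had 6 and 29 read ends there and the PRP43_Glu libraries 331 and 338, with 388, 1211, 617 and 584 expected. Am619 in 18S, the target of snR47, had 0.914 and 0.922 in WT and 0.33 and 0.65 in PRP43_Glu. It fell by 0.428 ± 0.102 (adjusted p = 0.0128), and PRP43_Gal had 0.664 and 0.594. Here the PRP43_Glu duplicates stood 0.32 apart, the widest gap of the passing sites, and the call was lost without WT replicate A (fell by 0.432, adjusted p = 0.0546) or B (fell by 0.424, adjusted p = 0.058). Its size rested on the PRP43_Glu library kept, with a difference of -0.268 without PRP43_Glu replicate A and of -0.588 without replicate B, both passing.

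**Figure D3:**
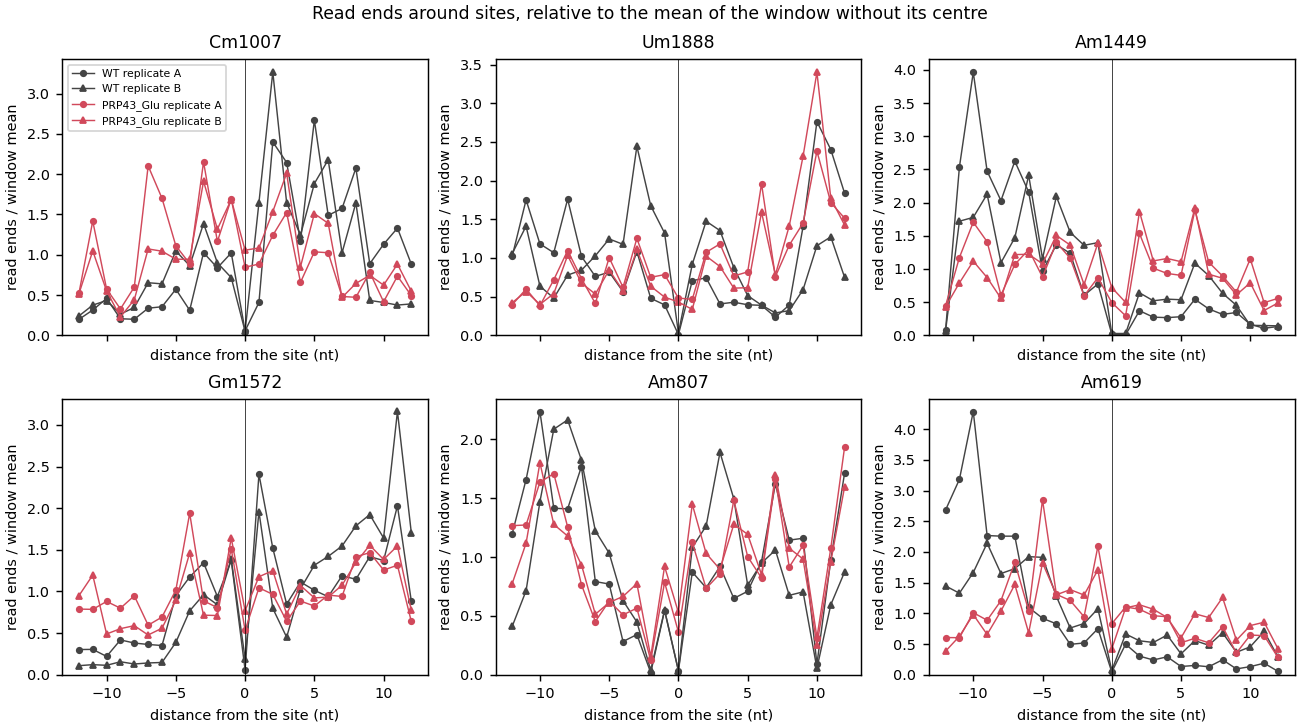
Read ends at each nucleotide relative to the mean of the window without its centre (vertical axis), against the distance from the site in nt (horizontal axis), for 6 sites with large falls, WT in black and PRP43_Glu in red, circles for replicate A and triangles for B. At the centre the WT points lie between 0.00926 and 0.194 and the PRP43_Glu points between 0.363 and 1.06, and at Am1449 the adjacent annotated site Gm1450 forms a second dip in WT.

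All 8 sites of intron-encoded guides fell, with a median of -0.319, beside 69.1% and a median of -0.141 over all 55 sites. These snoRNAs lie in introns of protein genes, and the RefSeq gene table places U24 inside ASC1, U18 inside EFB1, snR38 inside TEF4, snR39 inside RPL7A, snR59 inside RPL7B and snR54 inside IMD4. Assignment of guides to sites is general knowledge of yeast snoRNAs and not part of the deposited tables. U24 guides 3 sites of 25S. Am1449 had 0.974 and 0.974 in WT and 0.513 and 0.41 in PRP43_Glu and fell by 0.513 ± 0.0334 (adjusted p = 0.000116). Its neighbour Gm1450 had 0.986 and 0.971 in WT against 0.717 and 0.601 in PRP43_Glu (fell by 0.32 ± 0.0518, adjusted p = 0.00385). Cm1437 had 0.971 and 0.973 in WT against 0.587 and 0.566 in PRP43_Glu (fell by 0.396 ± 0.0246, adjusted p = 0.000116). At each of the 3 the PRP43_Glu scores were between 0.41 and 0.717 while the WT scores were all above 0.97.

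U18 guides the adjacent pair Am649 and Cm650 near the 5' end of 25S. Am649 had 0.989 and 0.98 in WT and 0.739 and 0.749 in PRP43_Glu, where the duplicates stood close together, and fell by 0.241 ± 0.0113 (adjusted p = 5.55e-05). Cm650 had 0.982 and 0.951 in WT against 0.703 and 0.594 in PRP43_Glu and fell by 0.318 ± 0.055 (adjusted p = 0.00447). Adjacent sites share most of their neighbours in the score, so their values are not independent, and leaving annotated neighbours out of the score kept the count at 38 sites. Am807, which both snR39 and snR59 can guide, had 0.946 and 0.963 in WT and 0.521 and 0.397 in PRP43_Glu (fell by 0.495 ± 0.05, adjusted p = 0.000698). The remaining intron-encoded guides had smaller changes. Gm2815, guided by snR38, fell from a mean of 0.976 to 0.856, and Am974 of 18S, guided by snR54, from 0.977 to 0.925. Without WT replicate A or B Am974 no longer passed (adjusted p = 0.0522 and 0.058).

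Sites of guides with genes of their own fell at 22 of 26 (84.6%), with a median of -0.162, and those of guides cut from polycistronic transcripts at 8 of 19 (42.1%), with a median of -0.0912, beside 69.1% of all 55 sites. Whether the 3 gene forms differ was not tested, and they differ in rRNA and position too. Among polycistronic guides the largest fall was at Gm1572 in the 3' part of 18S, the target of snR57. It had 0.953 and 0.806 in WT and 0.482 and 0.26 in PRP43_Glu and fell by 0.509 ± 0.0949 (adjusted p = 0.00574), with duplicates wider apart than at most sites in both groups. Cm414, the target of U14, a snoRNA that is also needed for 18S processing, had 0.952 and 0.951 in WT against 0.61 and 0.599 in PRP43_Glu (fell by 0.347 ± 0.0832, adjusted p = 0.0128). Its PRP43_Gal libraries, at 0.672 and 0.886, stood farther apart than either of those pairs. The call at Cm414 was lost without WT replicate A, WT replicate B, PRP43_Glu replicate A or PRP43_Glu replicate B, where the differences were -0.346, -0.348, -0.352 and -0.341 with an adjusted p of 0.0561, 0.058, 0.0505 and 0.0622.

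Both targets of snR51, which lie in different subunits, fell. Am100 of 18S had 0.934 and 0.891 in WT and 0.559 and 0.673 in PRP43_Glu (fell by 0.296 ± 0.0481, adjusted p = 0.00385), and Um2729 of 25S fell from a mean of 0.96 to 0.819. Cm2959, guided by snR73, had 0.965 and 0.887 in WT against 0.767 and 0.762 in PRP43_Glu (fell by 0.162 ± 0.0329, adjusted p = 0.00765). The other polycistronic targets that passed were Am796 (snR53, mean 0.953 to 0.823), Am28 (snR74, 0.981 to 0.885) and Gm1126 (snR41, 0.939 to 0.847). The 11 that did not pass had means of 0.586 to 0.959 in PRP43_Glu, and among them was Am541, the second target of snR41, with 0.955 and 0.949 in WT and 0.963 and 0.943 in PRP43_Glu.

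Guides with several targets showed how far 2 sites of 1 snoRNA could part. Of their 23 sites 18 fell (78.3%), and of the 30 sites of guides with 1 target 20 fell (66.7%), beside 69.1% of all 55 sites. Whether the lists differ was not tested. snR47 has a target in each subunit: Am619 fell by 0.428, as above, and Am2220 of 25S, with 0.977 and 0.972 in WT and 0.817 and 0.804 in PRP43_Glu, fell by 0.164 ± 0.0109 (adjusted p = 0.000116). snR40 guides Um898 of 25S, which had 0.849 and 0.874 in WT against 0.638 and 0.652 in PRP43_Glu (fell by 0.216 ± 0.0385, adjusted p = 0.00488), and Gm1271 of 18S, which had 0.972 and 0.988 in WT against 0.968 and 0.939 in PRP43_Glu and did not pass. Without the authors' barcode correction, which concerns a PRP43_Gal library at this site, Um898 did not pass (adjusted p = 0.206). Gm1271 did pass with edgeR (adjusted p = 0.0458). snR52 guides Um2921 of 25S, which passed with means of 0.995 and 0.965, and Am420 of 18S, at 0.876 and 0.809 in WT and 0.87 and 0.878 in PRP43_Glu, which did not.

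The targets of snR60, snR48 and snR13 had falls of like size. snR60 guides Am817, with 0.927 and 0.941 in WT and 0.749 and 0.786 in PRP43_Glu (fell by 0.166 ± 0.0175, adjusted p = 0.000774), and Gm908, with 0.904 and 0.928 in WT against 0.757 and 0.747 in PRP43_Glu (fell by 0.164 ± 0.0346, adjusted p = 0.00865). Gm908 lost its call without WT replicate B (fell by 0.152, adjusted p = 0.0523). snR48 guides the close pair Gm2791 and Gm2793. Gm2791 had 0.953 and 0.903 in WT against 0.791 and 0.767 in PRP43_Glu (fell by 0.149 ± 0.0247, adjusted p = 0.00387), and Gm2793 had 0.981 and 0.97 in WT against 0.806 and 0.81 in PRP43_Glu (fell by 0.168 ± 0.0108, adjusted p = 0.000116). snR13 guides the adjacent pair Am2280 and Am2281, whose means went from 0.976 to 0.923 and from 0.964 to 0.896. Am2280 lost its call without WT replicate A or B or PRP43_Glu replicate B (adjusted p = 0.0915, 0.0926 and 0.0893), and Am2281 without WT replicate A or either PRP43_Glu replicate (adjusted p = 0.105, 0.0646 and 0.076). Both targets of snR67, Gm2619 in the P loop and Um2724, had means of 0.933 and 0.929 in PRP43_Glu against 0.979 and 0.98 in WT and did not pass. Um2724 did pass in the fit of the compared libraries alone (adjusted p = 0.0416), on log2 odds (adjusted p = 0.00656) and with edgeR (adjusted p = 0.00895), and Gm2619 with edgeR (adjusted p = 0.0269). Gm2619 had an SE of 0.162, while its duplicates had a standard deviation of 0.000963 in WT, 0.00976 in PRP43_Gal and 0.0294 in PRP43_Glu. Most of its pooled variance therefore came from the Delta_Dbp3 pair.

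Along 18S the falls were uneven. In the 5' domain, from Am28 to Am619, 5 of 9 sites fell (median -0.0961). In the central domain, from Am796 to Gm1126, all 4 fell (median -0.111). In the 3' domains, from Um1269 to Cm1639, Gm1572 fell and the other 4 sites did not pass (median -0.0264), among them Cm1639 at the decoding site, with 0.984 and 0.994 in WT and 0.965 and 0.953 in PRP43_Glu (adjusted p = 0.0545). Cm1639 passed with edgeR on read ends (adjusted p = 0.000958), on log2 odds (adjusted p = 0.00519) and with limma's trend and robust moderation (adjusted p = 0.00238). Am436, the target of snR87, had 0.842 and 0.804 in WT and 0.69 and 0.635 in PRP43_Glu (fell by 0.161 ± 0.0433, adjusted p = 0.0195). It did not pass without WT replicate A, WT replicate B or PRP43_Glu replicate B (adjusted p = 0.0946, 0.0576 and 0.0983) or with edgeR (adjusted p = 0.0755).

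The 5' part of 25S held most of its large changes. From Am649 to Gm908, 9 of 10 sites fell, with a median of -0.279 and PRP43_Glu means of 0.459 to 0.83. Besides the sites above, Gm867 (snR50) had 0.946 and 0.961 in WT and 0.582 and 0.628 in PRP43_Glu (fell by 0.348 ± 0.0308, adjusted p = 0.000397). Cm663 (snR58), below 0.9 in WT already, had 0.845 and 0.825 in WT against 0.524 and 0.464 in PRP43_Glu (fell by 0.341 ± 0.0445, adjusted p = 0.00149). Gm805 (snR39b), next to Am807, fell from a mean of 0.968 to 0.83. From Am1133 to Um1888, 4 of 5 fell with a median of -0.396, and Am1133, the target of snR61, was at 0.952 and 0.954 in WT and 0.931 and 0.929 in PRP43_Glu without passing.

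In the 3' part of 25S the medians lay nearer to 0. From Cm2197 to Gm2288, 4 of 6 sites fell (median -0.0706), from Cm2337 to Um2421 3 of 4 (median -0.128), from Gm2619 to Gm2815 5 of 7 (median -0.141) and from Um2921 to Cm2959 3 of 5 (median -0.0797). Am2640, the target of snR68, had 0.959 and 0.969 in WT and 0.664 and 0.763 in PRP43_Glu (fell by 0.251 ± 0.0327, adjusted p = 0.00149). Am2256 (snR63), Cm2337 (snR64) and Um2417 (snR66) fell from means of 0.957, 0.981 and 0.981 to 0.819, 0.866 and 0.894. Am2256 did not pass without WT replicate B or PRP43_Glu replicate B (adjusted p = 0.064 and 0.0669), nor Um2417 without WT replicate A or B (adjusted p = 0.0634 and 0.064).

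Um2347 and Cm2948 were the sites with the lowest WT scores and so the least protected ones there. Um2347, guided by snR65, had 0.564 and 0.604 in WT and 0.321 and 0.313 in PRP43_Glu (fell by 0.267 ± 0.0628, adjusted p = 0.0128), while PRP43_Gal stood above WT with 0.654 and 0.765. It did not pass with edgeR (adjusted p = 0.135), nor without WT replicate B or PRP43_Glu replicate B (adjusted p = 0.0632 and 0.06). Cm2948, guided by snR69, had 0.582 and 0.651 in WT against 0.188 and 0.341 in PRP43_Glu (fell by 0.352 ± 0.0585, adjusted p = 0.00387), the lowest PRP43_Glu mean of the 55 sites. Am2946, 2 nt away and guided by snR71, was at 0.989 and 0.985 in WT and 0.978 and 0.975 in PRP43_Glu. Close sites sharing most of their neighbours could thus hold scores far apart in the same libraries. Am2946 did not pass in the main fit (difference -0.0101, adjusted p = 0.4). It passed with edgeR (adjusted p = 0.0351) and with limma's trend and robust moderation (adjusted p = 0.0447).

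Some sites had large differences but did not pass. Am876, the target of snR72, had 0.935 and 0.936 in WT and 0.534 and 0.637 in PRP43_Glu (difference -0.35 ± 0.155, adjusted p = 0.0947). Its duplicates had a standard deviation of 0.000659 in WT, 0.00223 in PRP43_Gal and 0.0724 in PRP43_Glu. Am876 therefore owed most of its pooled variance to the Delta_Dbp3 pair. Its SE of 0.155 came from the pooled variance, and it passed in the fit of the compared libraries alone (adjusted p = 0.00412), with edgeR (adjusted p = 0.000985) and without either Delta_Dbp3 replicate (adjusted p = 0.00121 each). Um2421 (snR78) had 0.94 and 0.984 in WT against 0.724 and 0.918 in PRP43_Glu (difference -0.141 ± 0.12, adjusted p = 0.332). Both Am876 replicate A and Um2421 replicate B of PRP43_Glu carry the authors' barcode correction, which uses 5' ends alone. The score from both ends was 0.367 in place of 0.534 at Am876 and 0.335 in place of 0.918 at Um2421. With edgeR, which reads both ends, Um2421 passed (adjusted p = 0.0118), and on log2 odds too (adjusted p = 0.0375). Its difference was -0.0441 without PRP43_Glu replicate A and -0.238 without replicate B.

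Gm2288 (snR75) had 0.97 and 0.968 in WT and 0.86 and 0.933 in PRP43_Glu (difference -0.0731 ± 0.0269, adjusted p = 0.0545), and it passed without PRP43_Glu replicate B (difference -0.109, adjusted p = 0.0108). Without PRP43_Glu replicate A the difference was -0.0367. Gm2288 passed with edgeR (adjusted p = 0.0118) and on log2 odds (adjusted p = 0.0132). It also passed with limma's trend and robust moderation (adjusted p = 0.0256) and with 2 neighbours on each side (adjusted p = 0.0453). Gm2922 in the A loop of the peptidyl transferase centre, the target of Spb1, a methyltransferase that needs no guide RNA, had 0.98 and 0.984 in WT against 0.924 and 0.881 in PRP43_Glu (difference -0.0797 ± 0.0388, adjusted p = 0.121). It passed in the fit of the compared libraries alone (adjusted p = 0.0317), on log2 odds (adjusted p = 0.00365) and with edgeR (adjusted p = 0.00402). In PRP43_Gal, Gm2922 had 0.826 and 0.941, a mean of 0.884 beside 0.902 in PRP43_Glu. Its neighbour Um2921 had 0.994 and 0.996 in WT against 0.969 and 0.961 in PRP43_Glu (fell by 0.0301 ± 0.00998, adjusted p = 0.0398), and this smallest of the passing changes was lost in 12 of 19 alternatives. Cm2197 (snR76) had the largest difference upward, with 0.92 and 0.816 in WT and 0.905 and 0.943 in PRP43_Glu (difference 0.0558 ± 0.0377, adjusted p = 0.235), and it passed as higher without WT replicate A (difference 0.107, adjusted p = 0.0309). Without WT replicate B its difference was 0.00401, so 1 WT library decided its size.

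The other 4 sites that did not pass, Gm562, Um578, Um1269 and Gm1428, had means of 0.957 to 0.977 in WT and of 0.935 to 0.959 in PRP43_Glu. Their guides are snR77 for Um578, snR55 for Um1269 and snR56 for Gm1428, and none is named here for Gm562, whose PRP43_Glu replicate B carries the barcode correction. The score from both ends was 0.763 there in place of 0.919. Gm562 passed with edgeR, which reads both ends (difference -0.118, adjusted p = 0.00895), and on log2 odds (adjusted p = 0.0425). Gm1428 passed with limma's trend and robust moderation (adjusted p = 0.0468).

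By methylated base, 15 of 20 Am sites, 8 of 10 Cm sites, 9 of 15 Gm sites and 6 of 10 Um sites fell, with medians of -0.149, -0.329, -0.12 and -0.114. Sites with another annotated site within 12 nt fell at 23 of 32 (median -0.155) and isolated sites at 15 of 23 (median -0.12). In 18S 10 of 18 fell (median -0.0717) and in 25S 28 of 37 (median -0.162). All of these shares are to be read against the 69.1% of the whole set, and differences between the lists were not tested.

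Reads have a 5' and a 3' end, and each gives a score of its own. At 37 of the 38 sites the change was downward from either end alone. The exception was Cm2948, which fell by 0.321 from 5' ends (adjusted p = 0.000845) and differed by 0.0541 upward from 3' ends (adjusted p = 0.729). Its 3'-end scores were 0.137 and 0.0694 in WT and 0 and 0.315 in PRP43_Glu. WT thus left little room for a fall from 3' ends at that site. From 5' ends 32 of the 38 passed, from 3' ends 23, from both 20 and from neither 3, namely Um2347, Um2921 and Cm2959. The changes from 5' and from 3' ends were -0.703 and -0.63 at Cm1007, -0.53 and -0.507 at Am1449, and -0.414 and -0.62 at Um1888. Other sites rested on one end: Am619 fell by 0.512 from 5' ends and differed by -0.094 from 3' ends, and Cm2959 differed by -0.000976 and -0.406. Um2421 differed by -0.0339 from 5' ends and by -0.655 from 3' ends.

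**Figure D4:**
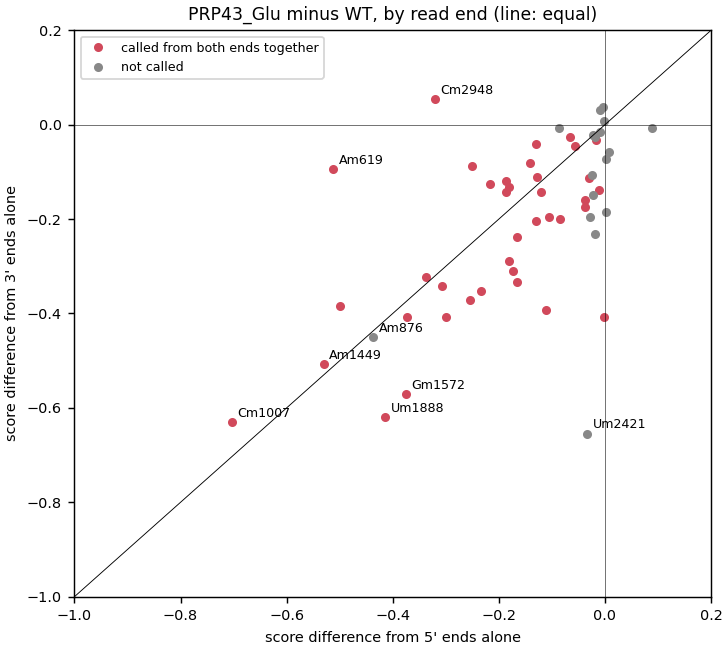
Difference in score, PRP43_Glu minus WT, from 5' ends alone (horizontal axis) and from 3' ends alone (vertical axis), 1 point per annotated site, red where the site passed from both ends together and grey where it did not, with the line of equal values. All red points but Cm2948 lie below 0 on both axes.

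The PRP43 strain in galactose gives the values of the same genotype in the sugar in which a GAL promoter is active. The PRP43_Gal and PRP43_Glu libraries also carried different barcodes. Sugar, promoter state and barcode cannot be told apart between them. Its comparison with WT shares the WT libraries, and its comparison with PRP43_Glu shares the PRP43_Glu libraries, so the values stand side by side and are not independent. PRP43_Gal differed from WT at 0 of 55 sites in limma (0%), and 5 sites had an unadjusted p under 0.05. The edgeR scan below (adjusted over all nucleotides, minimum difference 0.1) passed 1 of 50 sites as lower (2%) and 0 as higher. Under that rule PRP43_Glu against WT had 23 of 50 lower (46%). At an unadjusted p under 0.05 the scan had 17 of 50 sites for PRP43_Gal against WT and 41 of 50 for PRP43_Glu against WT. PRP43_Glu was lower than PRP43_Gal at 31 of 55 sites in limma (56.4%). Of the sites that fell against WT, Cm414, Am619, Am2280, Am2281, Cm2337, Um2417 and Um2921 did not pass against PRP43_Gal (limma, adjusted p from 0.112 to 0.788). At 30 of the 38 sites that fell against WT, the PRP43_Gal mean was within 0.05 of WT, and at 3 it was at least 0.1 below WT. These 3 were Am619, with 0.664 and 0.594 in PRP43_Gal, Cm414 and Cm2337, with 0.87 and 0.886 beside 0.982 and 0.979 in WT. At Cm2337 the PRP43_Glu libraries, at 0.846 and 0.885, overlapped those of PRP43_Gal. At Am619 PRP43_Glu replicate B, at 0.65, lay between the PRP43_Gal libraries, and replicate A, at 0.33, lay below them. The 30 sites within 0.05 include Am2280, Am2281, Um2417 and Um2921, where the falls were small. Their PRP43_Gal means differed from WT by -0.0316, -0.0248, -0.0472 and -0.0263. Their PRP43_Glu means differed from WT by -0.0535, -0.068, -0.087 and -0.0301. The median site scores of the PRP43_Gal libraries were 0.94 and 0.949.

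Outside the annotated sites the scan of read ends tested 5117 nucleotides (edgeR, adjusted p under 0.05 and a score difference of at least 0.1). Scores were lower in PRP43_Glu than in WT at 112 (2.19%) and higher at 31 (0.606%). Among the 50 annotated sites with enough read ends the same rule passed 23 as lower (46%) and 0 as higher. The median log2 ratio of relative read ends was 2.13 at annotated sites and 0.11 elsewhere. TMM factors, taken from the raw counts, were applied on top of the expected read ends, which already follow the depth of each library. They moved the median elsewhere to -0.48 and the median at annotated sites to 1.55. The counts elsewhere became 57 lower and 467 higher, so the direction of this count depended on the added scaling. Of the annotated sites 21 of 50 were lower and 0 higher under it. The counts also rested on single libraries: outside the sites 10 nucleotides passed when WT replicate A was left out and 0 when WT replicate B was (919 at an unadjusted p under 0.05). There were 1 and 4 without PRP43_Glu replicate A or B, 48 without either PRP43_Gal replicate, and 480 and 484 without Delta_Dbp3 replicate A or B. With a term for the barcodes that Delta_Dbp3 and PRP43_Glu share, chosen after the data were seen, 293 passed outside the sites, 226 lower and 67 higher, and 24 of 50 annotated sites. Annotated sites went to 5 and 2 without WT replicate A or B and to 6 and 7 without PRP43_Glu replicate A or B.

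The 10 unannotated nucleotides with the largest difference downward all had PRP43_Gal scores under 0.3. U227 of 18S, the largest difference downward, had 0.856 and 0.891 in WT and 0 in both libraries of PRP43_Glu and of PRP43_Gal (adjusted p = 0.0226 for PRP43_Glu against WT). U1472 of 25S had 0.862 and 0.86 in WT, 0 and 0.165 in PRP43_Glu and 0.134 in each PRP43_Gal library (adjusted p = 0.011). G452 of 25S, the largest difference upward, had 0 in both WT libraries, 0.758 and 0.621 in PRP43_Glu and 0.649 and 0.774 in PRP43_Gal (adjusted p = 0.0499). The median log2 ratio of relative read ends, PRP43_Gal over WT, was 0.48 at annotated sites and 0.1 elsewhere. In the scan PRP43_Gal differed from WT at 68 nucleotides downward (1.33%) and 21 upward (0.41%). Between PRP43_Glu and PRP43_Gal it passed 0 nucleotides outside the sites in either direction, with 107 at an unadjusted p under 0.05, and 6 of 50 annotated sites as lower (12%) and 0 as higher.

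**Figure D5:**
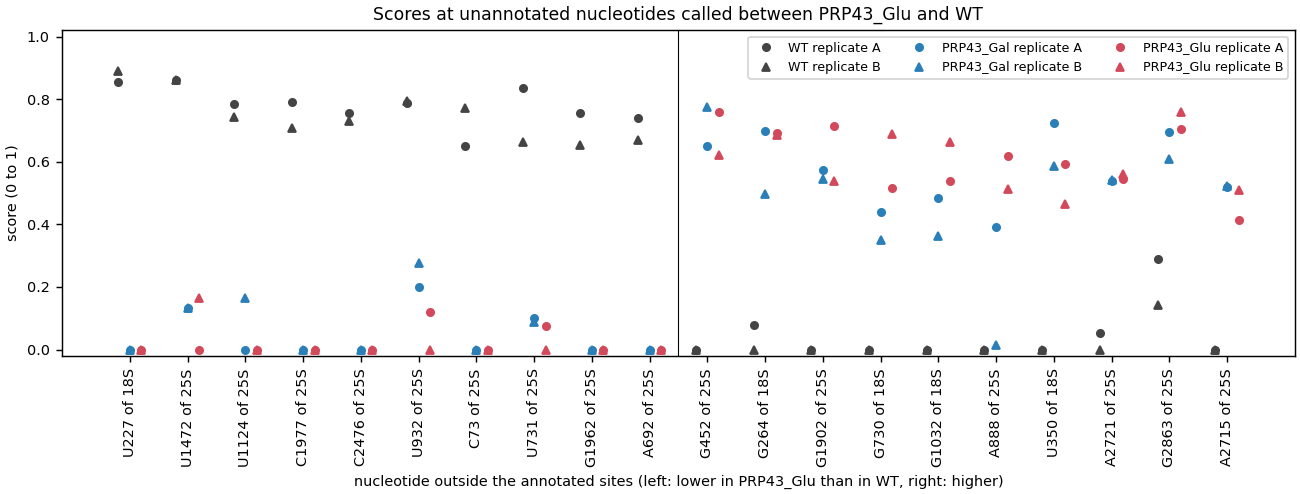
Score (0 to 1, vertical axis) at the 10 unannotated nucleotides with the largest difference downward (left) and the 10 with the largest upward (right) among those passing the scan between PRP43_Glu and WT, 1 point per library, WT in black, PRP43_Gal in blue and PRP43_Glu in red. On the left the WT points lie between 0.651 and 0.891 and the red points between 0 and 0.165.

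These nucleotides were also counted by base. Of the 112 that were lower, 40 were C, 36 U, 22 G and 14 A, while 19.5% of tested nucleotides were C, 26.5% U, 27.5% G and 26.5% A. Of the 31 that were higher, 13 were G, 11 A, 6 U and 1 C. Over all tested nucleotides the median log2 ratio of relative read ends, PRP43_Glu over WT, was 0.35 at C, 0.27 at U, -0.01 at G and -0.06 at A. In WT 433 and 457 unannotated nucleotides had a score above 0.6, in PRP43_Glu 103 and 73, and in PRP43_Gal 160 and 125. Base-dependent differences in read ends thus moved with the groups at nucleotides without an annotated methyl group, and their part in the site scores was not tested. The median change in score in the same scan was -0.161 at the sites and -0.0255 outside them. Scores below 0 were set to 0, so a nucleotide already near 0 could hardly fall. The medians are therefore not like measures and do not show how much base-dependent differences add at the sites.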

How the data were processed

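Whole cell RNA from yeast cultures was cleaved by partial alkaline hydrolysis and fragments of 20 to 40 nt were sequenced on the Ion Proton platform, per the labels' protocols. Tools listed by the submitters' processing notes are Bowtie2 2.3.4.1 and cutadapt 2.0. Their settings were not given in the sources used here. The deposited counts are, per the file headers, reads with their 5' end, reads with their 3' end and the sum of both at each nucleotide and library. The deposited score is a fraction from 0 to 1 (headed as a percentage). It was recomputed from the counts as 1 minus the sum over the mean of both sides' weighted means of 6 neighbours (weights from 1 to 0.5), with values below 0 set to 0, with a largest gap of 5.0e-10 to the 41376 deposited scores. Deposited by the authors too were group mean fractions at the 55 sites with a barcode correction. At 6 of 220 means, 3 of them in PRP43_Glu and 0 in WT, the deposited mean was met within 1e-06 only with the 5'-end score in 1 library, and that score was used there.

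Site scores entered limma 3.58.1 (R 4.3.3) in 1 fit over the 8 libraries (prior degrees of freedom 1.31, residual 4), with Benjamini-Hochberg adjustment over the 55 sites. Read ends at all nucleotides of 18S (1800) and 25S (3396) with a mean of at least 50 were tested with edgeR 4.0.16 (quasi-likelihood) with the log of the expected read ends as offset and adjustment over all of them. Both procedures were run on simulated data. The simulated read ends had a fixed dispersion that was not taken from these libraries. How the scan behaves at the spread between these duplicates was therefore not tested. Poisson limits were computed with scipy 1.17.1, and figures were drawn with matplotlib 3.10.9. The sites, their lists and the tests were chosen with earlier results of these data known. Per-library values are given for the 25 passing sites with the largest change, the 5 largest changes that did not pass, and Um2921 and Gm2922. Other targets of guides with several targets or in introns are given per library or as group means. Other sites with per-library values (Am1133, Am2946, Cm1639 and Cm2337) were named after their values were seen. Outside the sites, up to 10 nucleotides per direction with the largest difference are plotted. All 42 guide RNAs were found in the RefSeq gene table of assembly R64, from which the names of host genes were taken. The tables hold 16 further columns of per-sample values that were not used. Duplicates differed by far more than sampling noise (chi-square per degree of freedom of 466 in WT and 91.1 in PRP43_Glu), so each library was counted as 1 replicate. Alternatives were log2 odds, only the compared libraries, a replicate block, a barcode term (chosen after seeing the data), other moderation, edgeR at the sites, other neighbours, 1 read end alone, no barcode correction, other minimums, TMM factors, limma on log2 ratios, and each library left out.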

Additional observations from a re-analysis of the deposited data

How the results depend on the processing

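With 2 libraries per group, 18 of the 38 sites that fell kept their call in all 19 alternatives run for each, and 37 kept their direction. These 18 were Am28, Am100, Am796, Cm1007 and Gm1572 in 18S and Am649, Cm650, Gm805, Am807, Gm867, Cm1437, Am1449, Gm1450, Um1888, Am2220, Am2640, Gm2793 and Gm2815 in 25S. With edgeR on read ends, which used both ends without the barcode correction, 46 sites passed, among them Gm562, Am876 and Um2421. The number of sites passing was 23 from 3' ends alone, 45 on log2 odds, 40 with only the compared libraries, 42 with trend and robust moderation and 37 with a replicate block. With each library left out it ranged from 28 to 38. The letters A and B were not shown to pair the samples: deviations of same-lettered WT and PRP43_Glu libraries had an r of 0.00136 over unannotated nucleotides and 0.327 over the 55 sites. With the replicate block the calls outside the sites went from 143 to 73, and Um2921 lost its call (adjusted p = 0.0949). Delta_Dbp3 and PRP43_Glu share barcodes crosswise, and their same-lettered deviations had an r of -0.478 over unannotated nucleotides and -0.0138 over the sites. A barcode term for them, an alternative chosen after seeing the data, gave 40 sites (Am876 and Gm2288 besides the 38) and 293 nucleotides outside them. Outside the sites 524 nucleotides passed with TMM factors, and 0 to 484 with a library left out. The direction turned at sites that had not passed and at Cm2948. From 5' ends alone the changes were -0.00966 at Am420, -0.00188 at Am541, 0.0079 at Um1269, 0.00162 at Gm1271 and 0.0026 at Gm2922. From 3' ends alone they were 0.0375 at Um578, -0.0071 at Cm2197 and 0.0541 at Cm2948. With a library left out the change ranged from -0.00244 to 0.0654 at Am420, from -0.00896 to 0.0107 at Am541 and from -0.0256 to 0.0255 at Um578. The cause of these changes was not tested, beyond the fewer read ends or libraries that some alternatives use.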
